A study of Drosophila melanogaster with 25 samples.

Results

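Leg discs that carried a UAS-ey transgene were set against wild-type eye discs of Drosophila melanogaster, to ask which eye genes stood at eye level in the leg, which stayed short of it and which leg genes persisted. The comparison used 7 of the 25 arrays of the series, chosen by their titles. They were 3 arrays of UAS-ey leg discs (UASey_legdisc) and 4 arrays of wild-type eye discs (wildtype-eyedisc), all from larvae of the third instar. The 3 arrays of wild-type leg discs served as a second standard, to say what counts as an eye gene or a leg gene. Each array was an Affymetrix measurement of 1 RNA sample. The driver that expressed UAS-ey, the share of leg disc cells that received it and the strain backgrounds are not stated in the labels. The series design calls the samples biological triplicates but does not say what separates them, so the p-values measure the spread between these arrays.

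Imaginal discs are larval epithelia that form the adult eyes and appendages. Eyeless (ey) and twin of eyeless (toy) are Pax6 transcription factors at the top of the retinal determination network, and eyes absent (eya), sine oculis (so) and dachshund (dac) act below them. In the eye disc a furrow sweeps across the tissue, atonal (ato) selects the founder photoreceptor of each unit behind it, and the other photoreceptors and cone cells are recruited in turn. Leg discs are patterned from body wall to claw by Distal-less (Dll), dac and other factors, and take their thoracic segment identity from Hox genes such as Antennapedia (Antp) and Sex combs reduced (Scr). Ectopic ey is known for turning parts of leg discs into eye tissue.

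The deposited values were log2 signals with a common lowest value of 6.91, which 28.3% to 33.7% of the probe sets shared on each of the 7 arrays and which is called the floor here. A probe set was called when limma gave an adjusted p under 0.05 over all 18769 non-control probe sets. Of these, 1823 were called higher in UAS-ey leg discs than in eye discs (9.71% of those tested) and 1688 lower (8.99%). By at least 2-fold, 268 were higher (1.43%) and 323 lower (1.72%). The phe control, a bacterial transcript that measures no fly gene, overlapped between the groups: it averaged 8.51 ± 0.14 on UAS-ey leg arrays (SD, n = 3) and 8.61 ± 0.75 on eye arrays (SD, n = 4; exact permutation test, two-sided, p = 0.914). On the wild-type leg arrays it lay between 10.37 and 10.89, so every statement that uses wild-type leg discs crosses from this array set to another. The excess of 3' over 5' signal of eIF-4a, which reflects RNA integrity and the length of the labelled RNA, averaged 2.19 ± 0.09 on UAS-ey leg arrays and 1.90 ± 0.08 on eye arrays without overlap (exact permutation p = 0.0571, the smallest that 3 arrays against 4 allow). For GAPDH the values were 2.13 ± 0.13 and 1.89 ± 0.11 (exact permutation p = 0.114). The part of these control signals in the differences below was not tested.

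The labels of both discs matched their eye and leg marker genes apart from ey itself. Antp and Scr were at the floor on all 4 eye arrays, and Antp lay between 11.11 and 11.40 on the UAS-ey leg arrays. The antennal gene ss was also at the floor on all eye arrays. Other antennal genes were not: Dfd and danr, the latter also an eye gene, were lower in UAS-ey leg than in eye discs. Their log2 differences were -2.32 (Dfd) and -1.19 (danr). The share of antennal tissue in the eye samples was not tested. The probe set for ey read 10.36, 10.40 and 11.02 in UAS-ey leg discs, against 10.57, 10.81, 11.24 and 10.78 in eye discs, and the groups overlapped (log2 difference -0.25, limma adjusted p = 0.763). It was highest in wild-type leg discs, with 12.34, 12.10 and 11.68, so UAS-ey leg discs were below them by 1.45 (adjusted p = 0.000943) and ey counted as a leg gene by the rule given below. Across all arrays, after group means were removed, ey moved with the phe control (r = 0.75), so its level does not check the transgene.

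Among the 6 genes of the retinal determination network that were at least 2-fold higher in wild-type eye than in wild-type leg discs, eya came nearest to its eye level and toy stayed furthest below it. Of all 9 measured genes of the network, 6 were called lower in UAS-ey leg discs than in eye discs, 1 (dac) was called higher and 2 (ey and eya) were not called. The median difference was -0.90 on the log2 scale, against 0 over all probe sets. The summed linear signal of the 9 genes ran from 16426 to 17854 on UAS-ey leg arrays and from 29232 to 32721 on eye arrays. In discs taken whole, fewer cells that express a gene and less RNA per cell cannot be told apart.

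The transcription cofactor and phosphatase gene eya had log2 signals of 12.04, 12.07 and 12.09 in UAS-ey leg discs, against 12.73, 12.63, 12.69 and 12.65 in eye discs. The arrays did not overlap, and UAS-ey leg discs held 65.6% of the eye level on the linear scale. The fitted log2 difference of -0.61 (SE 0.22) was not called (limma adjusted p = 0.0648), but it was called when the 7 arrays were fitted alone (adjusted p = 0.00017) and when dim probe sets were left out (0.0251). Wild-type leg discs had eya at 8.26, 8.22 and 7.98, so UAS-ey leg discs stood 15.1-fold above them and covered 86.6% of the log2 gap between wild-type leg and eye.

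The partner of eya in DNA binding, so, read 9.81, 9.60 and 9.64 in UAS-ey leg discs, against 10.62, 10.55, 10.64 and 10.53 in eye discs. It was lower by 0.90 on the log2 scale without overlap (SE 0.19, limma adjusted p = 0.00141), at 53.5% of the eye level. Against wild-type leg discs it was 2.06-fold higher (adjusted p = 0.00103). The related homeobox gene Optix read 9.30, 9.23 and 9.34 in UAS-ey leg discs, against 11.07, 10.91, 10.91 and 10.85 in eye discs. Optix was at the floor in all wild-type leg discs and thus had risen at least 5.2-fold over them, yet it held only 32.0% of the eye level (log2 difference -1.64, SE 0.21, adjusted p = 8.45e-06). The same order was seen for the nuclear factors dan and danr, which take part in eye specification and are also antennal genes. They were at the floor in wild-type leg discs, at least 6.63-fold (dan) and 13.7-fold (danr) higher in UAS-ey leg discs, and there at 31.2% (dan) and 43.7% (danr) of the eye level.

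The second Pax6 gene, toy, showed the largest shortfall under the naming rule among genes with a name other than a CG number. It read 8.60, 8.66 and 9.04 in UAS-ey leg discs, against 13.00, 13.04, 12.85 and 12.80 in eye discs. Its level was thus 5.6% of that of the eye, a log2 difference of -4.16 (SE 0.15, limma adjusted p = 1.28e-13). All wild-type leg arrays had toy at the floor, so UAS-ey leg discs were still at least 3.62-fold above them. This rise rests on the brightest toy probe set. The other toy probe sets, with eye means of 10.95 and 8.85, were at the floor in UAS-ey leg discs and showed no rise. The Pax gene eyg, which promotes growth of the eye disc, was lower by 0.58 (SE 0.11, adjusted p = 0.000602). Unlike these, dac was higher in UAS-ey leg discs than in eye discs by 0.50 (SE 0.09, adjusted p = 0.000337). Wild-type leg discs also express dac, and UAS-ey leg discs differed from them by 0.23, which was not called (adjusted p = 0.0991).

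**Figure D1:**
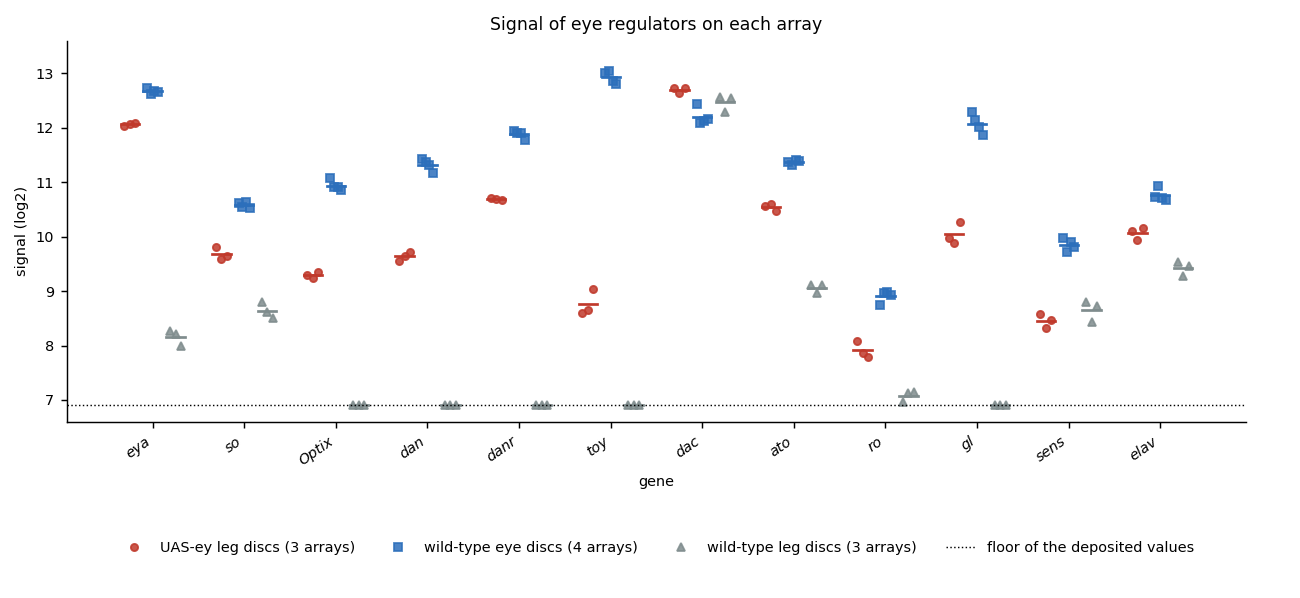
Log2 signal of 12 eye regulators (horizontal axis) on each array of UAS-ey leg discs (circles, left), wild-type eye discs (squares, middle) and wild-type leg discs (triangles, right), with bars at group means and a dotted line at the floor of 6.91. Apart from dac, every gene shown is lower on all UAS-ey leg arrays than on all eye arrays, by the smallest margin for eya, elav and ato and by the largest for toy, where the UAS-ey leg arrays lie between 8.60 and 9.04 and the eye arrays between 12.80 and 13.04.

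The genes of the furrow and the founder photoreceptor were divided. Of 9 measured, 3 were called lower, 2 were called higher and 4 were not called, and the median difference was -0.02. The proneural gene ato read 10.57, 10.60 and 10.47 in UAS-ey leg discs, against 11.37, 11.32, 11.40 and 11.38 in eye discs. The groups did not overlap, and the level was 56.4% of that of the eye. The fitted difference of -0.83 (SE 0.33) was not called over all arrays (limma adjusted p = 0.101), while the fit of the 7 arrays alone called it (adjusted p = 0.00014) and so did the fit without dim probe sets (0.0396). Against wild-type leg discs, where ato is known to form stretch receptors, it was 2.79-fold higher (adjusted p = 0.00553).

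Downstream of ato the shortfall was larger for the zinc finger gene sens, which keeps the founder cell in its fate. It had signals of 8.58, 8.31 and 8.47 in UAS-ey leg discs, against 9.97, 9.72, 9.91 and 9.81 in eye discs, a log2 difference of -1.40 (SE 0.14, limma adjusted p = 5.75e-07). The UAS-ey leg level overlapped that of wild-type leg discs, which read 8.80, 8.43 and 8.72. The homeobox gene ro, active in and behind the furrow, was lower by 0.99 (SE 0.08, adjusted p = 1.56e-08) and thus lay at the edge of the 2-fold margin. The Notch ligand gene Delta was lower by 0.21 (SE 0.06, adjusted p = 0.0217). On the other side, the signal gene hh, which drives the furrow in the eye and comes from the posterior compartment in the leg, was higher by 0.58 (SE 0.10, adjusted p = 0.000267) and differed from wild-type leg discs by -0.10 (adjusted p = 0.7). The transcriptional repressor gene hry was higher by 0.37 (adjusted p = 0.0174), a call lost without UAS-ey leg replicate 3, eye replicate 3 or eye replicate 4 and after median centring (0.0639). The morphogen gene dpp was not called.

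Genes of later photoreceptors and cone cells were nearly all short of the eye. Of 17 measured, 13 were called lower, 1 was called higher and 3 were not called, with a median difference of -1.80. All 11 that counted as eye genes by the rule given below were at least 2-fold short. The summed linear signal of the 17 ran from 8904 to 10017 on UAS-ey leg arrays, against 24006 to 27055 on eye arrays. The zinc finger gene gl, which all photoreceptors need, read 9.97, 9.89 and 10.27 in UAS-ey leg discs, against 12.28, 12.14, 12.01 and 11.87 in eye discs. It was at 24.5% of the eye level (log2 difference -2.03, SE 0.16, limma adjusted p = 2.63e-08), although it stood at least 8.76-fold above wild-type leg discs, all of which were at the floor.

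Some of these genes had risen partway over wild-type leg discs and others not at all. The Runx gene lz, which prepares cells for cone and late photoreceptor fates, was at the floor on the wild-type leg arrays and read 8.84, 8.61 and 8.74 in UAS-ey leg discs, against 10.76, 10.60, 10.72 and 10.53 in eye discs. The receptor kinase gene sev, needed for the last photoreceptor, was at 40.5% of the eye level and above wild-type leg discs by 0.66 (limma adjusted p = 0.000198). By contrast, the homeobox genes B-H1 and B-H2 of the outer photoreceptors stood at 24.2% (B-H1) and 17.2% (B-H2) of the eye level, and differed from wild-type leg discs by 0.01 (B-H1) and -0.05 (B-H2), which was not called. The cone cell gene pros was at the floor on all 3 UAS-ey leg arrays, against 9.90, 9.72, 9.90 and 9.79 on the eye arrays, and so at least 7.53-fold lower. The nuclear receptor gene svp, of the outer photoreceptors, held 28.6% of the eye level and differed from wild-type leg discs by -0.41 (adjusted p = 0.144). The zinc finger genes salm and salr had 17.7% (salm) and 28.8% (salr). The photoreceptor surface protein gene chp was lower by 1.36 (adjusted p = 0.0006), but its signal moved with the phe control over the arrays (r = 0.73).

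Pan-neuronal genes were lower in part. Of 11 measured, 6 were called lower, none higher and 5 were not called, with a median of -0.55. The RNA-binding protein gene elav, a marker of all neurons, read 10.10, 9.93 and 10.16 in UAS-ey leg discs, against 10.73, 10.92, 10.71 and 10.68 in eye discs. It was at 61.6% of the eye level without overlap of arrays, and its limma adjusted p of 0.0447 passed the threshold only narrowly: the call was lost with any 1 of the 7 arrays left out. The sodium pump subunit gene nrv3 was much further from the eye, with 7.28, 7.05 and 7.24 in UAS-ey leg discs, against 10.33, 10.55, 10.49 and 10.14 in eye discs (11% of the eye level, adjusted p = 8.15e-16). The homeobox gene onecut was at the floor on all UAS-ey leg arrays and at least 5.36-fold lower than in the eye. The axonal protein genes Appl and Ank2 had 29.1% (Appl) and 14.7% (Ank2) of the eye level while standing above wild-type leg discs by 3.12 (Appl, adjusted p = 7.62e-08) and 1.85 (Ank2, adjusted p = 1.32e-05). The Ank2 values are those of its brightest probe set. Its other probe sets that counted as eye genes differed from wild-type leg discs by 0.56 and -0.16. Markers of glia, which migrate into the eye disc from the brain, were called in both directions, with a median of 0.02. Of 8 measured, 3 were called lower (moody, at 33.9% of the eye level, loco at 71.9% and repo at 69.1%), 2 were called higher (wrapper by 1.27 and Gs2 by 0.71) and 3 were not called, gcm2 being at the floor on all 7 arrays. The summed glial signal ran from 9936 to 10968 in UAS-ey leg discs and from 12420 to 13519 in eye discs, and its part in the neuronal differences was not tested.

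The machinery of the mature eye gave little to compare at this larval stage. Of 10 measured phototransduction genes, 3 were called lower and 1 higher (2 higher without eye replicate 4), and 2 (Arr1 and trp) were at the floor on all 7 arrays. The protein kinase C gene inaC read 8.02, 7.75 and 7.88 in UAS-ey leg discs, against 10.55, 10.62, 10.40 and 10.25 in eye discs (16.8% of the eye level, limma adjusted p = 3.34e-09). The phosphatase gene rdgC was at the floor in UAS-ey leg discs and at least 2.74-fold lower than in the eye. For the G protein gene Galphaq the 3 probe sets disagreed in direction, so its call of -0.71 is left as uncertain. Of 10 pigment genes, 3 were called lower (or, dor and cd), all by under 0.40 on the log2 scale, and none higher. Without UAS-ey leg replicate 2 a single lower call was left.

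Signalling pathways of the eye disc differed in their counts. In the EGF receptor pathway, 2 of 11 (aos and aop) were called lower and none higher, with a median of -0.007, where 8.99% of all probe sets were called lower. The call for aop was lost without UAS-ey leg replicate 2 or eye replicate 1, and the 7 arrays fitted alone gave 4 lower calls. The feedback inhibitor gene aos read 10.03, 10.07 and 10.14 in UAS-ey leg discs, against 11.51, 11.40, 11.29 and 11.25 in eye discs (41.1% of the eye level, limma adjusted p = 3.36e-07). Among Notch pathway genes, 7 of 10 were called lower and 1 (fng) higher, with a median of -0.35. The largest difference was that of E(spl)m4-BFM, a Notch target of the Bearded family, which read 10.35, 10.33 and 10.36 in UAS-ey leg discs, against 11.77, 11.94, 11.77 and 11.75 in eye discs. Its UAS-ey leg level differed from that of wild-type leg discs by 0.10, which was not called (adjusted p = 0.522). The repressor gene E(spl)mdelta-HLH was lower than in the eye by 0.99 (SE 0.04, adjusted p = 4.88e-12), and above wild-type leg discs by 0.95 (adjusted p = 1.3e-10). Of the 10 Notch pathway genes, 4 were called below wild-type leg discs (E(spl)m7-HLH, E(spl)mbeta-HLH, E(spl)malpha-BFM and E(spl)m2-BFM). Called above were 2 (Delta and E(spl)mdelta-HLH), and 4 were not called. Over all probe sets 10.3% were called below and 9.02% above.

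To describe all eye genes, those at least 2-fold higher in wild-type eye than in wild-type leg discs and called were taken, 295 probe sets (1.57%) with 251 named genes. Each was placed by its difference between UAS-ey leg and eye discs. As the same eye arrays enter both differences, the counts are a description and were not tested. In 224 the UAS-ey leg discs were at least 2-fold short of the eye and called, in 38 the 95% interval of the difference lay within 2-fold of the eye, in 1, a probe set without a gene name, they were above the eye by at least 2-fold, and 32 were undecided. Over all probe sets the interval lay within 2-fold for 94.3%. The 38 became 16 when eye genes had to be above wild-type wing and antennal discs too, and 13 with a margin of 1.5-fold. Of the 38 within 2-fold, 18 were still called lower than the eye, 1 higher and 19 were not called. The undecided ones included eya, so, ato, ro and elav, and 28 of the 32 were called lower.

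Most eye genes lay nearer to the leg than to the eye. The median difference of UAS-ey leg discs was -1.44 from eye discs and 0.28 from wild-type leg discs on the log2 scale, and the median share of the log2 gap that was covered was 16.1% (quartiles 0.0% and 40.1%). For 19 probe sets 80% or more of the gap was covered, for 116 between 20% and 80%, and for 160 under 20%. Called above wild-type leg discs were 136 of the 295, where 9.02% of all probe sets were, and 9 were called below. At the floor on all 3 UAS-ey leg arrays were 45, and 41 of them were at the floor in wild-type leg discs too. No eye gene followed the phe control (r of 0.7 or more over the arrays, after group means were removed). As phe was higher on wild-type leg than on eye arrays, a probe set that rises with it could hardly count as an eye gene. The result is thus largely set by the selection and does not show that eye genes are free of the array set.

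**Figure D2:**
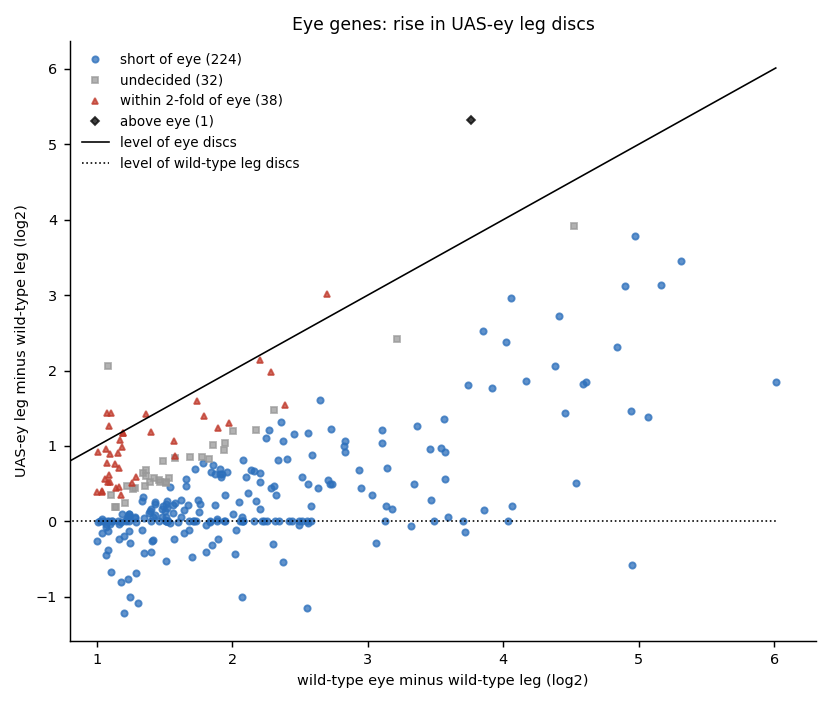
Rise of each of the 295 eye-gene probe sets in UAS-ey leg over wild-type leg discs (vertical axis, log2 difference) against the height of wild-type eye over wild-type leg discs (horizontal axis, log2 difference), with a solid line at the level of eye discs and a dotted line at that of wild-type leg discs. Of the points, 224 (circles) are short of the eye, many of them along the dotted line, 38 (triangles) are within 2-fold of it, 32 (squares) are undecided and 1 (diamond) is above it, and both axes share the wild-type leg arrays.

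By the fit of all arrays, 0 genes of the retinal determination network or of photoreceptor fate were among the 38 at eye level. For eya of the network, and for ato of the founder photoreceptor, this rests on the SE over all groups. With the compared arrays fitted alone, the differences from the eye were -0.607 (eya, SE 0.029) and -0.826 (ato, SE 0.037). Both genes were then called lower than the eye, but lay inside the margin that defines the 38 by several SEs. Among the 38, the gene with the largest rise was Rnf11, whose human counterpart is a RING-type ubiquitin ligase. It read 9.76, 9.86 and 10.16 in UAS-ey leg discs, against 9.85, 9.84, 9.39 and 9.37 in eye discs, with overlap, and was at the floor on all wild-type leg arrays, at least 8.07-fold lower. The gene exp (expansion), known from tracheal tube shape, read 10.12, 10.15 and 10.53 in UAS-ey leg discs, against 10.64, 10.52, 10.48 and 10.63 in eye discs, and was 3.96-fold above wild-type leg discs. The adaptor gene Traf4, which acts at cell junctions and in JNK signalling, had 10.84, 10.91 and 10.96 in UAS-ey leg discs, against 11.20, 11.01, 11.02 and 10.98 in eye discs. It stood at 90.0% of the eye level and 3.01-fold above wild-type leg discs, though a second, dimmer Traf4 probe set was lower than in the eye by 1.03.

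Further genes at eye level were bnl, a fibroblast growth factor of tracheal growth, at 98.6% of the eye level and at least 2.25-fold above wild-type leg discs, and the transferrin gene Tsf3 at 126.1%. The gene rgn (regeneration) had 86.3% of the eye level, Gasp, a chitin-binding protein of cuticle and trachea, 87.5%, and the chitinase gene Cht6 92.7%. In each of these, by the brightest probe set, the 95% interval of the difference from the eye lay within 2-fold and the difference was not called in the fit of all arrays. A second Cht6 probe set, with means of 9.56 in UAS-ey leg and 9.08 in eye discs, was called higher by 0.48 (limma adjusted p = 0.0309). Under some alternatives a difference within 2-fold was called: Gasp was lower with the 7 arrays fitted alone (adjusted p = 0.0106), Tsf3 higher without dim probe sets (0.0402), exp lower without dim probe sets (0.0285) or UAS-ey leg replicate 3 (0.00714), and Rnf11 higher under 5 alternatives (0.0128 to 0.0487). Just inside the margin, E(spl)mdelta-HLH and ro had differences of -0.99, and their intervals reached beyond it.

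With each gene given by its brightest probe set, several of the largest shortfalls after toy were those of genes at or near the floor in UAS-ey leg discs. The ARID factor gene retn, known from photoreceptor axon guidance and neurons, read 7.15, 7.08 and 7.14 in UAS-ey leg discs, against 10.94, 10.89, 11.14 and 10.93 in eye discs (6.9% of the eye level, limma adjusted p = 3.42e-17). The Iroquois gene mirr, which marks the dorsal eye, had 7.12, 6.91 and 6.91 in UAS-ey leg discs, against 10.64, 10.44, 10.54 and 10.45 in eye discs, a level of 8.6%. The activin gene Actbeta was at the floor on all UAS-ey leg arrays and at least 11.2-fold lower than in the eye. The glutamate receptor gene Ekar had 9.0% of the eye level, yet was at least 2.76-fold above wild-type leg discs, where it was at the floor. The titin-family gene bt was at the floor in UAS-ey leg discs and at least 10.2-fold lower than in the eye. The translation factor gene eEF1alpha2 had 11.9% of the eye level and was also below wild-type leg discs, by 1.0 (adjusted p = 0.0463). The 3 largest falls among genes known by CG or CR numbers were those of CG31676, CG4914 and lncRNA:CR33938, and CG4914 was likewise below wild-type leg discs, by 1.15 (adjusted p = 0.00357).

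Genes that mark regions of the eye and head went both ways. The ocellar and photoreceptor gene oc held 28.8% of the eye level, and the head Hox gene Dfd was at the floor in UAS-ey leg discs and at least 4.98-fold lower than in eye discs. The GATA factor gene pnr, which defines the dorsal head and dorsal thorax, read 7.65, 7.59 and 8.16 in UAS-ey leg discs, against 10.19, 10.07, 10.21 and 10.03 in eye discs. The Iroquois gene ara, which is related to mirr and marks the dorsal eye as well, was higher than in the eye by 1.08 (SE 0.09, limma adjusted p = 2.06e-08).

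Leg patterning genes persisted in UAS-ey leg discs. Of 15 measured genes of the leg's proximal to distal axis, 13 were called higher than in eye discs and none lower, with a median of 1.5. All 12 that counted as leg genes (at least 2-fold higher in wild-type leg than in wild-type eye discs and called) were at least 2-fold above the eye. Their summed linear signal was 26256 to 28888 in UAS-ey leg discs, against 9894 to 11352 in eye discs. The homeobox gene Dll read 12.19, 12.10 and 12.24 in UAS-ey leg discs, against 7.49, 8.07, 7.48 and 6.93 in eye discs. This was a log2 difference of 4.68 (SE 0.19, limma adjusted p = 1.16e-12), while the difference from wild-type leg discs was 0.27 (adjusted p = 0.47).

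Upstream of Dll, the zinc finger gene btd had 10.23, 9.99 and 10.36 in UAS-ey leg discs and was at the floor on all eye arrays, so it was at least 9.72-fold higher. Its homologue Sp1 was higher by 1.29. The zinc finger gene disco, which maintains Dll, had 10.82, 10.80 and 11.07 in UAS-ey leg discs, against 7.66, 7.55, 7.72 and 7.38 in eye discs. It differed from wild-type leg discs by 0.13 (adjusted p = 0.624). Genes of the leg joints gave 4 higher calls of 8 and none lower, the largest being those of TfAP-2 and nub. The signals of TfAP-2 were 11.71, 11.57 and 11.60 in UAS-ey leg discs, against 6.95, 7.33, 6.96 and 6.96 in eye discs. For nub, the brightest probe set was at the floor in all eye discs and at least 12-fold higher in UAS-ey leg discs. A second nub probe set averaged 9.27 in UAS-ey leg and 8.87 in eye discs, a difference of 0.40 that was not called (limma adjusted p = 0.383).

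Against wild-type leg discs, 5 of the 15 genes of the axis (Lim1, bab1, bab2, al and ap) were called lower, none higher and 10 were not called, where 10.3% of all probe sets were called lower. The LIM-homeobox gene Lim1 of the leg tip lay between 10 and 10.30 in UAS-ey leg discs, against 8.50 to 8.85 in eye discs (limma adjusted p = 2.41e-08), and was below wild-type leg discs by 1.08 (adjusted p = 1.21e-05). The tarsal genes bab1 and bab2 were higher than in the eye by 1.51 (bab1, from the floor, at least 2.84-fold) and 1.26 (bab2). They were below wild-type leg discs by 1.04 (bab1, adjusted p = 9.66e-06) and 0.54 (bab2, adjusted p = 0.00416). The claw region gene al and the tarsal gene ap were lower than in wild-type leg discs by 0.99 (al, adjusted p = 0.000501) and 1.05 (ap, adjusted p = 0.00225). Among the 10 not called were the proximal gene tsh (0.08, adjusted p = 0.777), btd (-0.19, adjusted p = 0.112), the tarsal gene ss (0.22, adjusted p = 0.3) and Dll.

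Of 8 measured genes of thoracic and ventral identity, 4 (Antp, Scr, H15 and mid) were called higher than in the eye, 1 (Doc3) lower and 3 were not called, with a median of 1.16. The Hox gene Antp read 11.11, 11.14 and 11.40 in UAS-ey leg discs and was at the floor on all 4 eye arrays, at least 19.8-fold lower. It differed from wild-type leg discs by -0.10 (limma adjusted p = 0.549). The Hox gene of the first thoracic segment, Scr, had 10.01, 10.18 and 9.95 in UAS-ey leg discs, against the floor on all eye arrays (at least 8.77-fold), but was below wild-type leg discs by 0.65 (adjusted p = 3.8e-05). The ventral T-box genes H15 and mid were higher than in the eye by 2.27 (H15) and 2.93 (mid). The dorsal T-box gene Doc3, in contrast, had 35.9% of the eye level. The posterior compartment selector genes en and inv were higher by 1.53 (en) and 1.72 (inv), and Wnt6 by 1.19.

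Muscle precursors lie beneath the leg epithelium. Of 4 measured genes of these cells, 3 were called higher and none lower. The myoblast gene twi read 9.78, 9.80 and 9.99 in UAS-ey leg discs and was at the floor in all eye discs (at least 7.70-fold), with a difference of -0.11 from wild-type leg discs (limma adjusted p = 0.482). The fibroblast growth factor receptor gene htl was higher than in the eye by 1.02 and zfh1 by 1.0. The summed signal of the 4 genes was 2444 to 2852 in UAS-ey leg discs, against 896 to 1069 in eye discs.

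**Figure D3:**
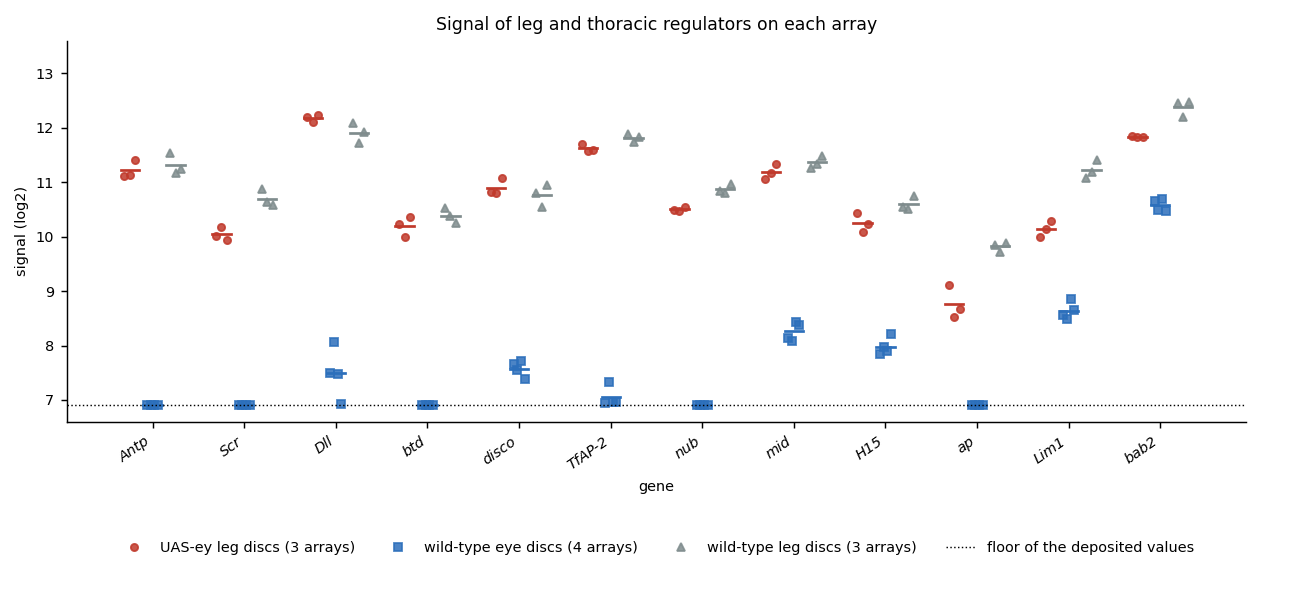
Log2 signal of 12 leg and thoracic regulators (horizontal axis) on each array of UAS-ey leg discs (circles, left), wild-type eye discs (squares, middle) and wild-type leg discs (triangles, right), with bars at group means and a dotted line at the floor. For every gene shown all UAS-ey leg arrays lie above all eye arrays, as for Dll with 12.10 to 12.24 against 6.93 to 8.07, while Lim1, ap, bab2, H15 and Scr were called below wild-type leg discs.

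The whole set of leg genes held 449 probe sets (2.39%) with 364 named genes. In 102 of them UAS-ey leg discs were at least 2-fold above the eye and called, in 290 the 95% interval lay within 2-fold of the eye, in 2 (Sgs3 and GstD3) they were at least 2-fold below it, and 55 were undecided. This division, too, was not tested, since the eye arrays are shared. With leg genes required to be above antennal discs as well, 215 were left, 40 of them persisting. Of the 102 that persisted, 62 did not differ by a call from wild-type leg discs, 24 were called below them and 16 above. At the floor on all eye arrays were 39 of the 449.

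Most of the 290 leg genes within 2-fold of the eye moved with the phe control within the groups of arrays. Of the 449, 227 followed the phe control, and 204 of these were among the 290 and 0 among the 102. As the mean phe signal was alike on UAS-ey leg and eye arrays, a follower would tend to read alike in both. These counts thus follow in part from how the classes were defined, and do not show that the 102 are free of the array set. In 259 of the 290 the mean of wild-type wing discs was also at least 2-fold above that of the eye, while this held for 59 of the 102 that persisted. The mean of UAS-ey leg discs from ato mutants was at least 2-fold above the eye for 274 of the 290 and, to a like share, for 97 of the 102. The shares of all probe sets for which these hold were not counted. The wing and the ato-mutant leg arrays lie in the array set of the wild-type leg arrays. Without the probe sets that followed phe, an alternative added after the data were seen, 222 leg genes were left, of which the same 102 persisted and 86 lay within 2-fold of the eye. With wild-type leg discs required to be above wing discs too, also added later, 44 leg genes were left, 30 of them persisting and 5 within 2-fold. For the 290, a loss of leg expression and the change of array set cannot be told apart.

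The 8 leg genes with the largest fall to eye level were CSN1a, Cyp4s3, Pvf1, nompB, Trxr2, Inx7, ssp7 and Timp, and each followed phe with an r between 0.77 and 0.96. The gap junction gene Inx7 read 7.76, 8.02 and 8.38 in UAS-ey leg discs, against 7.04, 7.45, 9.26 and 8.25 in eye discs and 10.48, 10.21 and 10.16 in wild-type leg discs. Its value was highest on the eye array with the highest phe signal, eye replicate 3.

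**Figure D4:**
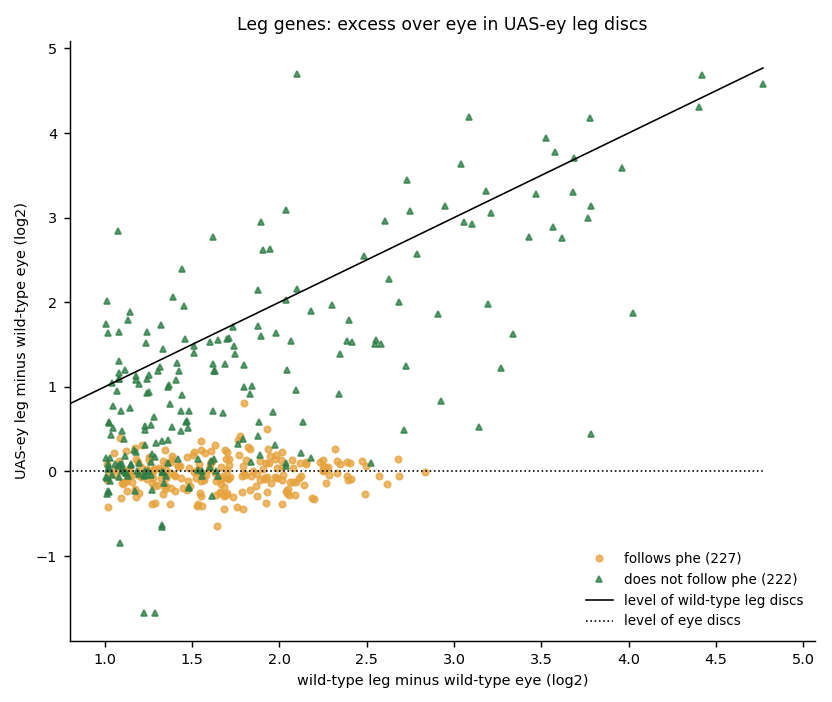
Excess of UAS-ey leg over wild-type eye discs (vertical axis, log2 difference) against that of wild-type leg over wild-type eye discs (horizontal axis, log2 difference) for 449 leg-gene probe sets, with a solid line at the level of wild-type leg discs and a dotted line at that of eye discs. The 227 that follow the phe control (circles) lie along the dotted line. The 222 that do not (triangles) spread from the dotted line to above the solid line, with some below the dotted line. Of these, 86 are within 2-fold of the eye. Both axes share the eye arrays.

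Some genes were higher in UAS-ey leg discs than in both wild-type discs. At least 2-fold above both and called were 97 probe sets (0.517%) with 73 named genes, and 16 of the 97 were at the floor on all eye and wild-type leg arrays. Among them were upd1 and chinmo. The JAK/STAT ligand gene upd1 read 10.55, 10.56 and 10.83 in UAS-ey leg discs, against the floor on all eye arrays (at least 13.3-fold), and was 6.74-fold above wild-type leg discs. The zinc finger gene chinmo, a known target of the pathway, had 11.23, 10.96 and 11.62 in UAS-ey leg discs, against 8.72 to 9.07 in eye discs (limma adjusted p = 1.05e-05), and was 9.0-fold above wild-type leg discs. The receptor gene dome, just under the 2-fold limit, was higher than in the eye by 0.98 and than in wild-type leg discs by 0.87. Of 5 measured genes of the pathway 3 (upd1, chinmo and dome) were called higher than in the eye and none lower.

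The relaxin-like hormone gene Ilp8, which damaged or overgrown discs release to delay metamorphosis, had 10.33, 10.46 and 10.41 in UAS-ey leg discs and was at the floor on all eye and wild-type leg arrays, at least 11.2-fold lower. It was the single gene of 7 for cell death and stress that was called higher. The metalloprotease gene Mmp2 and the TNF gene egr of that list were lower than in the eye, at 40.0% (Mmp2) and 47.8% (egr) of its level, while Mmp2 was above wild-type leg discs by 2.53 (limma adjusted p = 2.76e-05). A second probe set of egr differed from the eye by 0.16 in the other direction. The aldehyde oxidase gene AOX3 had the largest excess over the eye, with 11.85, 11.72 and 12.02 in UAS-ey leg discs, against 7.26, 7.28, 6.97 and 7.14 in eye discs, and was also 6.06-fold above wild-type leg discs. The tektin gene Tektin-C was at the floor on all arrays of both wild-type discs and read 10.78, 10.64 and 10.76 in UAS-ey leg discs (at least 14.1-fold). Named after their values were seen, Cyp6a17 and Nepl3 behaved alike, with 10.26, 10.25 and 10.44 for Cyp6a17 in UAS-ey leg discs, against the floor in all eye discs, and 11.03, 10.98 and 10.97 for Nepl3 in UAS-ey leg discs, against 7.67, 7.56, 7.53 and 7.51 in eye discs. For 48 of the 97 probe sets the mean of UAS-ey wing discs lay within 0.5 of that of UAS-ey leg discs. The share of all probe sets for which this holds was not counted, and the UAS-ey wing arrays lie in the array set of the wild-type leg arrays. Whether the 48 reflect a shared response was not tested.

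Below both wild-type discs by at least 2-fold were 52 probe sets (0.277%) with 45 named genes, 1 of which, chp, followed phe. The GATA gene pnr, given above, was one of these, lower than in wild-type leg discs by 2.23 (limma adjusted p = 2.15e-06). The other genes in this paragraph were named after their values were seen. The tendon cell gene sr read 7.05, 6.95 and 7.16 in UAS-ey leg discs, against 8.87, 8.76, 8.89 and 8.84 in eye discs, and kek5 read 7.15, 7.18 and 7.43 in UAS-ey leg discs, against 9.59, 9.39, 9.50 and 9.12 in eye discs. The ecdysone-inducible genes ImpE2 and ImpE3, which take part in disc eversion, were at 29.2% (ImpE2) and 25.3% (ImpE3) of the eye level. For ImpE2 the 3 UAS-ey leg arrays were spread from 11.29 to 12.64, against 13.70 to 13.84 on the eye arrays. Blimp-1, which also responds to ecdysone, had 36.2%.

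**Figure D5:**
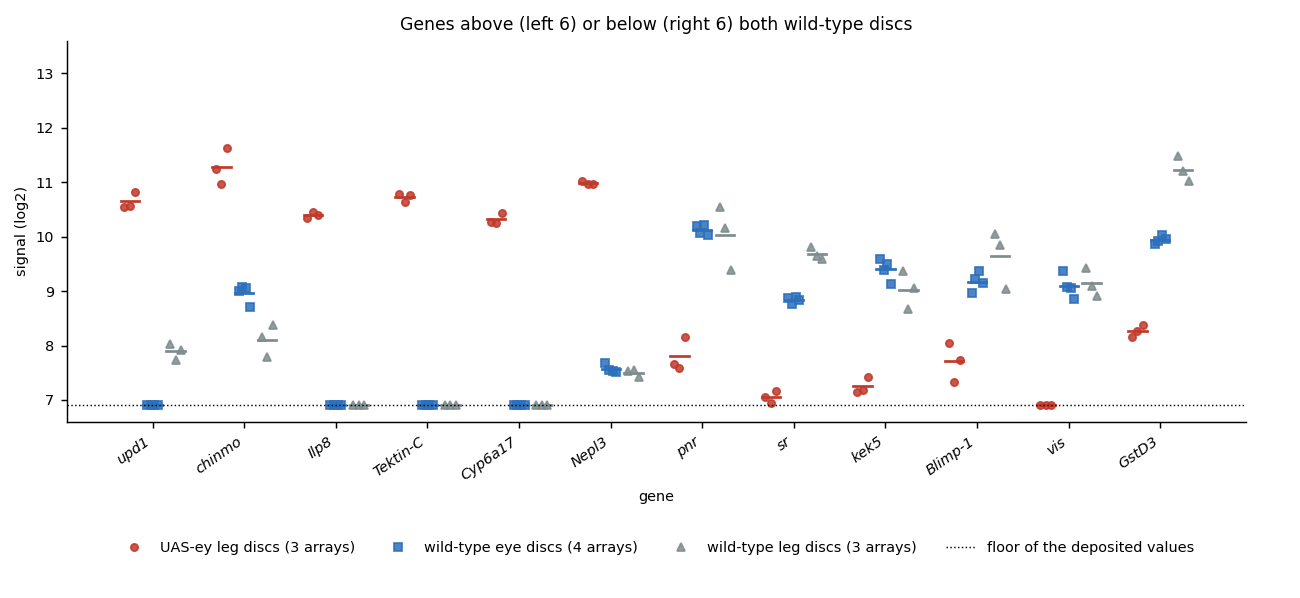
Log2 signal on each array of UAS-ey leg discs (circles, left), wild-type eye discs (squares, middle) and wild-type leg discs (triangles, right) for 6 genes above both wild-type discs and 6 genes below both, with bars at group means and a dotted line at the floor. In each gene the UAS-ey leg arrays lie outside the range of both wild-type groups, as for Ilp8 with 10.33 to 10.46 against the floor on every wild-type array shown.

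Genes of DNA replication were slightly higher in UAS-ey leg discs than in eye discs. Of 10 measured genes of the cell cycle, 9 were called higher and none lower, with a median of 0.39. The licensing factor gene dup read 10.80, 10.59 and 10.67 in UAS-ey leg discs, against 9.98, 9.81, 9.69 and 9.63 in eye discs, a log2 difference of 0.91 (SE 0.10, limma adjusted p = 3.18e-06). The helicase subunit genes Mcm5 and Mcm6 were higher by 0.58 (Mcm5) and 0.48 (Mcm6). They were also above wild-type leg discs, by 0.70 (Mcm5, adjusted p = 5.29e-05) and 0.47 (Mcm6, adjusted p = 8.97e-06).

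Markers of tissues that lie beside the discs differed in places. The ecdysone synthesis genes of the ring gland gave 3 lower calls of 4: spok read 6.91, 6.91 and 7.39 in UAS-ey leg discs, against 6.91, 10.03, 10.31 and 9.23 in eye discs, so eye replicate 1 was at the floor and the groups overlapped. The salivary glue genes gave 3 lower calls of 9, with Sgs8 at 8.91, 7.95 and 7.99 in UAS-ey leg discs, against 12.19, 9.47, 10.87 and 12.53 in eye discs. The calls of these glue and ring gland genes were lost when the 7 arrays were fitted alone (limma adjusted p = 0.0781 for Sgs8 and 0.251 for spok). Of 4 fat body genes Fbp2 was called higher, with 8.74, 11.64 and 11.96 in UAS-ey leg discs, against 6.94, 6.91, 7.10 and 8.39 in eye discs, and this call too was lost in that fit (adjusted p = 0.067). Without eye replicate 4, all 4 were called higher. The summed fat body signal ran from 2123 to 9936 in UAS-ey leg discs and from 563 to 12236 in eye discs. Of 7 haemocyte genes 1 (crq) was called lower, but not without UAS-ey leg replicate 1 or eye replicate 3. Their part in the differences above was not tested.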

How the data were processed

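Each sample was hybridised to 1 Affymetrix array. Per the labels' protocols, RNA was isolated with Trizol, 100 ng of total RNA per sample was amplified in the 2-cycle protocol, and the cRNA was labelled with biotin using an Enzo kit. The deposited values are on a log2 scale, as their range (6.91 to 14.33) shows. How the authors made 1 value per probe set, and how arrays were scaled, is not given in the sources used here. Array medians lay between 7.54 and 7.77, and the deposited scaling was kept. Every array had the same lowest value (120.5 on the linear scale), treated as a floor. Where all arrays of a group were at it, a fold is given as "at least", from group means of log2 values. The number of arrays limits the precision.

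Of 18952 probe sets, 183 Affymetrix controls were left out. The platform annotation named 1 gene for 13646 of the other 18769, several genes for 402 and none for 4721. Only the first kind was named (11981 genes, 13543 of the probe sets matched in the RefSeq gene table), and 1094 genes with several probe sets were given by their brightest probe set, as a mean of all 25 arrays. Differences were fitted with limma 3.58.1 (R 4.3.3, lmFit and eBayes) on all 25 arrays with a mean for each of 8 groups, two-sided, with Benjamini-Hochberg adjustment over 18769 probe sets. The fit had 17 residual degrees of freedom. Single control signals were compared by exact permutation. An SE rests on the spread over all groups, so it can exceed or understate that of the 7 arrays, as for eya and ato. Percentages of the eye level are 2 to the power of the log2 difference.

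The members, the 27 gene lists (220 of 281 entries measured) and the naming rule were chosen with earlier results of these data known. The rule named 22 genes of eye and leg development whatever their test, the 10 largest differences in each direction without array overlap (CG and CR numbers passed over, with the 3 largest of these in each direction), 8 genes of each eye-gene and leg-gene class, and up to 4 genes a list, in all 146. Other genes named are list members or were chosen after their values were seen. Scripts were tested on simulated data. Replicate numbers did not pair the samples.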

Additional observations from a re-analysis of the deposited data

Results flagged for a closer look

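In the wild-type eye discs, the single group of 4 arrays, 14 of 124 named genes had 1 array far from the other 3, and chance alone gives such a flag in about 1 of 20 groups. Eye replicate 4 carried most of the fat body genes: Lsp2 read 12.28 there, against 7.23 to 7.49 on the other eye arrays, Fbp1 12.11 against 7.39 to 7.58, apolpp 11.31 against 6.91, and Fbp2 8.39 against 6.91 to 7.10. Without this array Lsp2 (log2 difference 3.82, limma adjusted p = 4.62e-05), Fbp1 (2.35, adjusted p = 0.00103) and apolpp (2.34, adjusted p = 0.022) were called higher in UAS-ey leg discs. The pigment transporter gene st was also high on eye replicate 4, at 8.15 against 7.84 to 7.89.

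Eye replicate 1 had sad, an ecdysone synthesis gene, at 8.14 against 9.02 to 9.07, and p53 at 10.48 against 10.36 to 10.38. Eye replicate 2 had 2 Notch targets high, E(spl)m4-BFM at 11.94 against 11.75 to 11.77 and E(spl)malpha-BFM at 12.40 against 12.08 to 12.11. It also had TfAP-2 at 7.33 against 6.95 to 6.96 and ara low, at 10 against 10.17 to 10.18. Eye replicate 3, which had the highest phe signal, had the phe follower Cyp4s3 at 8.45 against 6.91 to 7.02, onecut at 9.54 against 9.24 to 9.29 and CG4914 at 12.75 against 12.63 to 12.64.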

How the results depend on the processing

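Across all alternatives no named gene changed direction with a call, and 110 of the 146 named genes kept their call under every alternative run, while 36 lost or gained it under at least 1. With 1 array left out, 2877 to 3423 probe sets were called (3511 with all), 1469 to 1836 higher and 1372 to 1658 lower, 246 to 280 of them at least 2-fold higher and 315 to 337 at least 2-fold lower. Eye genes then numbered 287 to 299, of which 217 to 230 were short and 30 to 37 within 2-fold, and leg genes 416 to 461, of which 98 to 105 persisted and 221 to 279 were within 2-fold. With the phe signal as a covariate 135 leg genes were left, 24 of them within 2-fold of the eye. With eye genes also required to be above wing and antennal discs, 16 were within 2-fold. With leg genes above eye and antennal discs, 215 were left, 40 persisting and 152 within 2-fold. A margin of 1.5-fold in place of 2-fold gave 13 eye genes and 69 leg genes within it. In the alternatives added after the data were seen, leg genes also above wing discs numbered 44 (30 persisting, 5 within), and without phe followers 222 (86 within). The replicate number as a block gave 3299 calls, and the call for elav was lost under it (adjusted p = 0.0748), but same-numbered arrays did not deviate together (correlations 0.08, -0.30 and 0.21), so they share only a number. The 7 arrays fitted alone gave 2924 calls and median centring 2929. Of the calls, 51.9% were higher with the deposited scaling, 52.7% after quantile normalization and 47.6% after median centring. The 4682 probe sets at the floor on all 7 arrays could show no difference.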

Other observations

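Ecdysone response genes, hormone targets that change through the third instar, moved in both directions. Of 10 measured, EcR and ftz-f1 were called higher in UAS-ey leg discs than in eye discs, by 0.86 (EcR) and 1.15 (ftz-f1), and ImpL2 and Eip78C lower, by 1.03 (ImpL2) and 0.41 (Eip78C). Quantile normalization and median centring gave 4 lower calls. Of 8 wing identity genes, ap, nub and ara were called higher and mirr, pnr and tup lower. The wing selector gene vg was at the floor on 6 of the 7 arrays, among them all eye arrays. It was not called (log2 difference 0.39, limma adjusted p = 0.751). Of 9 antennal identity genes, 2 that the leg shares (Dll and ss) were called higher and 4 (salm, lz, dan and danr) lower. Of 3 measured tracheal genes, btl and serp were called higher, by 0.25 (btl) and 0.29 (serp). Without UAS-ey leg replicate 1 or 3, or eye replicate 2 or 3, only 1 of these calls was left. Of 3 genes of brain neurons brp was called lower, at 68.4% of the eye level, and Rdl joined it without eye replicate 1.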
